A study of Drosophila melanogaster with 24 samples.

Results

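The comparison described here is between midgut progenitor cells of Drosophila melanogaster at 30 days and at 10 days. It rests on 8 of the 24 RNA sequencing libraries of the series, chosen by their titles. Per the labels, 4 libraries come from 30-day flies and 4 from 10-day flies that all carry a temperature-sensitive esg driver with lacZ, the control transgene of the study. The third midgut group, 4 libraries of 10-day flies with an RNA interference construct against Adar in place of lacZ, entered the fit only to share its estimate of the spread. The esg driver marks intestinal stem cells together with their enteroblast daughters, and the extract protocol describes sorting by flow cytometry, so each library is a mixture of the sorted cells. The sex of the flies, their number per library, the temperature shifts and any pooling are not stated in the sources used here. The labels do not say whether the 4 replicates of an age are separate flies. The p-values therefore reflect no more than the differences among these libraries, part of which may be technical.

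The fly midgut is renewed by stem cells that divide, keep a copy of themselves and send daughters into the enterocyte or enteroendocrine lineage, with Notch signalling steering the choice. Enterocytes digest and absorb, enteroendocrine cells secrete peptide hormones, and EGFR, JAK-STAT and JNK signals from stressed cells speed up division. The ageing gut is known for more division, misplaced differentiation and chronic stress responses. A growing or dividing progenitor depends on its nucleolus, where RNA polymerase I transcribes ribosomal RNA and where ribosome subunits are assembled.

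Values are TPM of annotated genes, a measure of transcript abundance per unit of gene length that was rescaled to the same total in each library. The 30-day libraries held an estimated 3.40 to 5.99 gigabases of aligned reads and 8616 to 8775 genes above 1 TPM, and the 10-day libraries 4.86 to 6.68 gigabases and 8090 to 8417 genes. The transcription factor gene esg, which defines the sorted cells, had 506, 319.7, 269 and 344 TPM in the 30-day libraries, against 568, 334, 815 and 719 TPM in the 10-day libraries (log2 fold change −0.72 ± 0.29, adjusted p = 0.0946 by limma). The groups overlapped for esg. Of the defining markers of other tissues, the muscle myosin gene Mhc was at most 1.40 TPM and the haemocyte gene Hml at most 0.206 TPM in any of the 8 libraries. The fat body gene Lsp2 was listed at 0 in 4 of them and at 15.2 TPM in 30-day library 4. The neuronal gene elav had 50.03, 20.8, 27.5 and 49.3 TPM in the 30-day libraries, against 16.6, 48.1, 46.7 and 86.4 TPM in the 10-day libraries, and its groups overlapped. Of 6 neuronal genes 3 rose and 0 fell, against 4.44% and 12.1% of all genes, 2 of them in all 3 fits described below. Their summed level was 64.1 to 85.7 TPM at 30 days and 57.5 to 108 TPM at 10 days. Of 3 tested genes on the tracheal list 2 rose. One of them was bnl, a ligand gene known for drawing tracheal branches towards tissues, which does not mark tracheal cells. The defining tracheal gene btl was at 3.18 to 9.17 TPM at 30 days and 2.35 to 9.85 TPM at 10 days (log2 fold change 0.004 ± 0.46, adjusted p = 0.995 by limma). The part of such cells in the results was not tested. Library 1 at 10 days stood apart: its Spearman correlation to the other 10-day libraries was 0.901 to 0.910, against 0.932 to 0.973 among 30-day libraries and 0.960 to 0.993 among the other 10-day libraries. The yolk protein gene Yp1 had 4.65, 2.39, 4.26 and 10.6 TPM in the 30-day libraries, against 94.4, 0.919, 0.0392 and 0.0965 TPM in the 10-day libraries, so that 10-day library 1 held several times more than any other library. The pair of 10-day libraries 3 and 4 was the closest of all. Whether these are separate samples is not stated in the sources used here. The non-coding RNA roX1 of male dosage compensation had 11.02, 0.0505, 0.476 and 0.267 TPM in the 30-day libraries, against 10.8, 0.000114, 0.0828 and 0.0220 TPM in the 10-day libraries, so library 1 of both ages held it while the other 6 had at most 0.476 TPM. Whether the makeup of the flies by sex differed between libraries was not tested.

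At 30 days, part of the genes for detoxification enzymes and single genes of signalling, cilia and differentiated gut cells were higher. On the RNA polymerase I and nucleolus list 31 of 50 genes were lower, against 12.1% of all genes. So were 15 of 46 replication and histone genes and 10 of 30 nucleotide synthesis genes. Without 10-day library 1 these counts were 24, 7 and 7, against 9.53% of all genes. In all 3 fits described below they were 21, 6 and 5, against 3.93%. The nucleotide synthesis list was written after values had been seen. The genes of the cytoplasmic ribosomal proteins gave 7 higher calls and 0 lower calls among 82 tested. Of 8695 genes with a mean of at least 1 TPM over the 8 libraries, 386 rose (4.44%) and 1052 fell (12.1%) at an adjusted p under 0.05 by limma on log2(TPM + 1). The median gene moved by −0.28 on the log2 scale, so that the balance of higher and lower calls depends on the scaling. With median-ratio scaling, which moves that median to −0.05, 483 genes rose (5.59%) and 345 fell (3.99%) of 8648. Without 10-day library 1, 382 rose (4.42%) and 824 fell (9.53%) of 8647. In 6.38% of all genes each 30-day library lay above each 10-day library, and in 20.5% below. A set of 285 genes rose (3.28%) and 342 fell (3.93%) in all 3 of these fits. Counts below are from the first fit, and medians of lists are also given relative to the median gene. The shares of all genes given here apply to each count of list members at an adjusted p under 0.05. At an unadjusted p under 0.05 by limma, 799 of all 8695 genes rose and 2322 fell. List counts at that unadjusted cutoff are to be read against these numbers. Left out in turn, 30-day libraries 2, 3 and 4 and 10-day libraries 3 and 4 each moved at least 1 of the counts by over 1.5 times, to 172 to 226 genes higher and 436 to 521 lower. With 10-day libraries 3 and 4 averaged and counted as 1 library, 193 genes rose and 439 fell. Over all 8 fits without a library, 172 to 382 of all genes were higher and 436 to 1222 lower. In all 8 of them 139 genes kept their higher call and 331 their lower call. Unless it is said otherwise, a gene described below as having risen or fallen kept its call in each of these 8 fits, with median-ratio scaling, and without 10-day library 1.

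**Figure D1:**
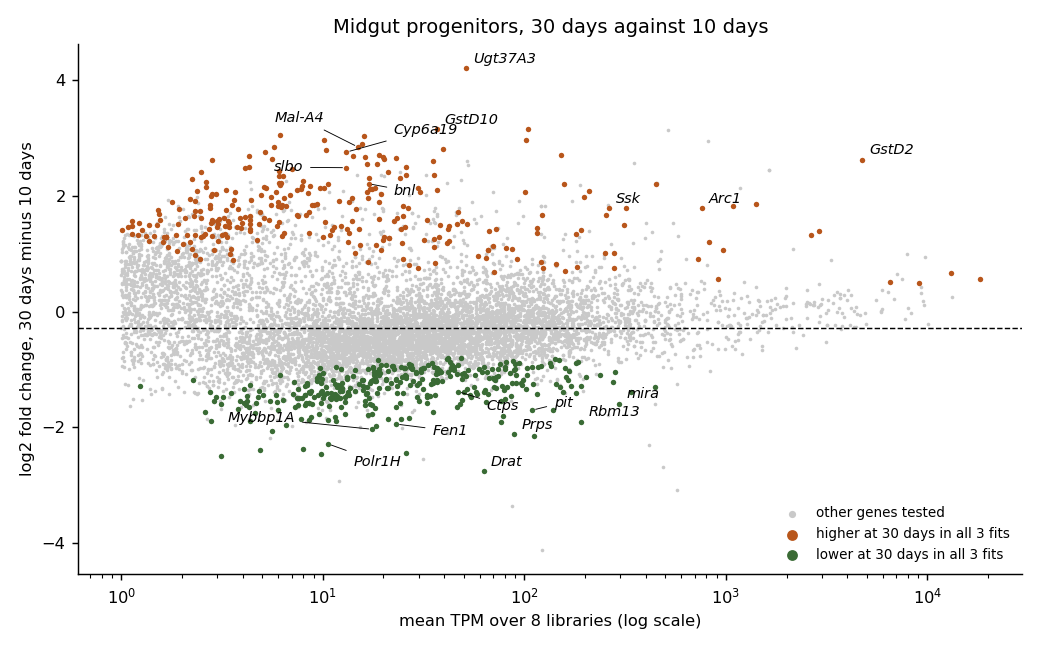
Mean level over the 8 libraries (x axis, TPM, log scale) against the log2 fold change on the log2(TPM + 1) scale, 30 days minus 10 days (y axis), for the 8695 genes tested; coloured points are the 285 genes higher and 342 genes lower in all 3 fits, and the dashed line is the median gene at −0.28. Named higher genes include Ugt37A3 at 4.21 and GstD10 at 3.16, and named lower ones Drat at −2.76 and Polr1H at −2.29.

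Glutathione S-transferases, which couple glutathione to reactive compounds, made up one of the most changed groups. Of 33 tested, 14 rose and 1 fell, against 4.44% and 12.1% of all genes, and 11 rose in all 3 fits. Leaving out 1 library at a time gave 8 to 15 higher members. The median of the list was 0.78, which is 1.07 relative to the median gene. Their summed level was 7413, 15948, 15490.0 and 19087 TPM in the 30-day libraries, against 2894, 8202, 4182 and 4984 TPM in the 10-day libraries. The 30-day libraries 2 to 4 lay above each 10-day library, whereas 30-day library 1 lay below 10-day library 2. GstD10, of the delta class, had 38.2, 99.3, 74.2 and 57.3 TPM in the 30-day libraries, against 4.83, 10.3, 6.52 and 4.49 TPM in the 10-day libraries (dm6 chromosome 3R, 12364776 to 12365735). Each 30-day library was higher than each 10-day library, on the log2 scale by more than the spread within either age (log2 fold change 3.16 ± 0.37, adjusted p = 0.000954). Its neighbour in the same gene cluster, GstD9, had 257, 917, 959 and 863 TPM in the 30-day libraries, against 112, 251, 109 and 140.2 TPM in the 10-day libraries (log2 fold change 2.20 ± 0.38, adjusted p = 0.00632). The groups did not overlap, although 30-day library 1 came close to 10-day library 2. The most abundant member, GstD2, had 3268, 8793, 8553 and 11115 TPM in the 30-day libraries, against 354, 3326, 1016 and 1576 TPM in the 10-day libraries, and it rose although the groups overlapped (log2 fold change 2.62 ± 0.58, adjusted p = 0.0142). GstD5, GstE8 and the omega-class genes se and GstO3 rose as well, with log2 fold changes of 2.71 ± 0.55, 2.71 ± 0.59, 1.66 ± 0.31 and 1.01 ± 0.22. The delta and epsilon genes are close paralogues in tandem clusters, so reads could be shared between them in the authors' counting.

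The other detoxification families gave fewer calls. Of 43 cytochrome P450 genes tested, whose products oxidise xenobiotics and endogenous lipids, 11 rose and 1 fell, against 4.44% and 12.1% of all genes. In all 3 fits 10 rose, against 3.28% of all genes, and 7 to 13 rose with a library left out. The list median was 0.99 relative to the median gene. Cyp6a19 had 13.99, 30.4, 26.9 and 22.9 TPM in the 30-day libraries, against 4.46, 2.60, 1.91 and 1.63 TPM in the 10-day libraries, with no overlap of the groups (log2 fold change 2.76 ± 0.55, adjusted p = 0.00858). Cyp9b2, Cyp4ac1, Cyp6a23 and Cyp4p1 rose by log2 fold changes of 2.35 ± 0.44, 2.11 ± 0.27, 1.98 ± 0.41 and 1.92 ± 0.45. The whole of Cyp4ac1 lies within tkv on the opposite strand, which had a mean of 72.1 TPM, so their reads may not be separable. Of 21 UDP-glycosyltransferases, which attach sugars to such compounds for export, 4 rose and 0 fell (7 and 2 at an unadjusted p under 0.05). The shares of all genes were 4.44% and 12.1%. In all 3 fits 3 rose, against 3.28% of all genes. Ugt37A3 had the largest increase among the genes named by size, with 8.93, 115, 109.8 and 167 TPM in the 30-day libraries, against 1.59, 5.74, 1.66 and 2.94 TPM in the 10-day libraries. Library 1 at 30 days was far below the other 30-day libraries, and still above each 10-day library (log2 fold change 4.21 ± 0.90, adjusted p = 0.0120). The adjacent Ugt37A2 had 2.62, 10.9, 9.95 and 8.76 TPM in the 30-day libraries, against 0.0505, 1.51, 0.427 and 0.176 TPM in the 10-day libraries, and in both genes library 1 was the lowest at each age (log2 fold change 2.50 ± 0.53, adjusted p = 0.0104).

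Antioxidant and metal genes changed in part. Of 27 genes of antioxidant defence and the Nrf2 pathway 7 rose and 0 fell (9 and 2 at an unadjusted p under 0.05), against 4.44% and 12.1% of all genes. In all 3 fits 3 rose, against 3.28% of all genes, and 1 to 7 rose with 1 library left out. The Nrf2 homologue cnc did not pass (log2 fold change 0.39 ± 0.29, adjusted p = 0.341), nor did its inhibitor Keap1 (log2 fold change 0.81 ± 0.27, adjusted p = 0.0522), although all 30-day values of Keap1 lay above the 10-day values and it was called higher with median-ratio scaling (adjusted p = 0.0292). Gclc, the catalytic subunit for glutathione synthesis, had 245, 348, 308 and 440.1 TPM in the 30-day libraries, against 102, 233, 165 and 175 TPM in the 10-day libraries. Its groups did not overlap, and its call (log2 fold change 1.01 ± 0.26, adjusted p = 0.0228) was lost without 30-day library 2, 3 or 4 or 10-day library 3 (adjusted p up to 0.0636). The ferritin light chain gene Fer2LCH rose (1151 ± 321 TPM at 30 days and 491 ± 97.4 TPM at 10 days, SD over 4 libraries; log2 fold change 1.20 ± 0.26, adjusted p = 0.0117). The heavy chain gene Fer1HCH overlaps it on the opposite strand, so their reads may not be separable. The metallothionein gene MtnD had 30.5, 15.5, 42.2 and 23.3 TPM in the 30-day libraries, against 5.27, 15.02, 3.08 and 1.18 TPM in the 10-day libraries, and the lowest 30-day value was just above the highest 10-day value (log2 fold change 2.31 ± 0.54, adjusted p = 0.0152).

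**Figure D2:**
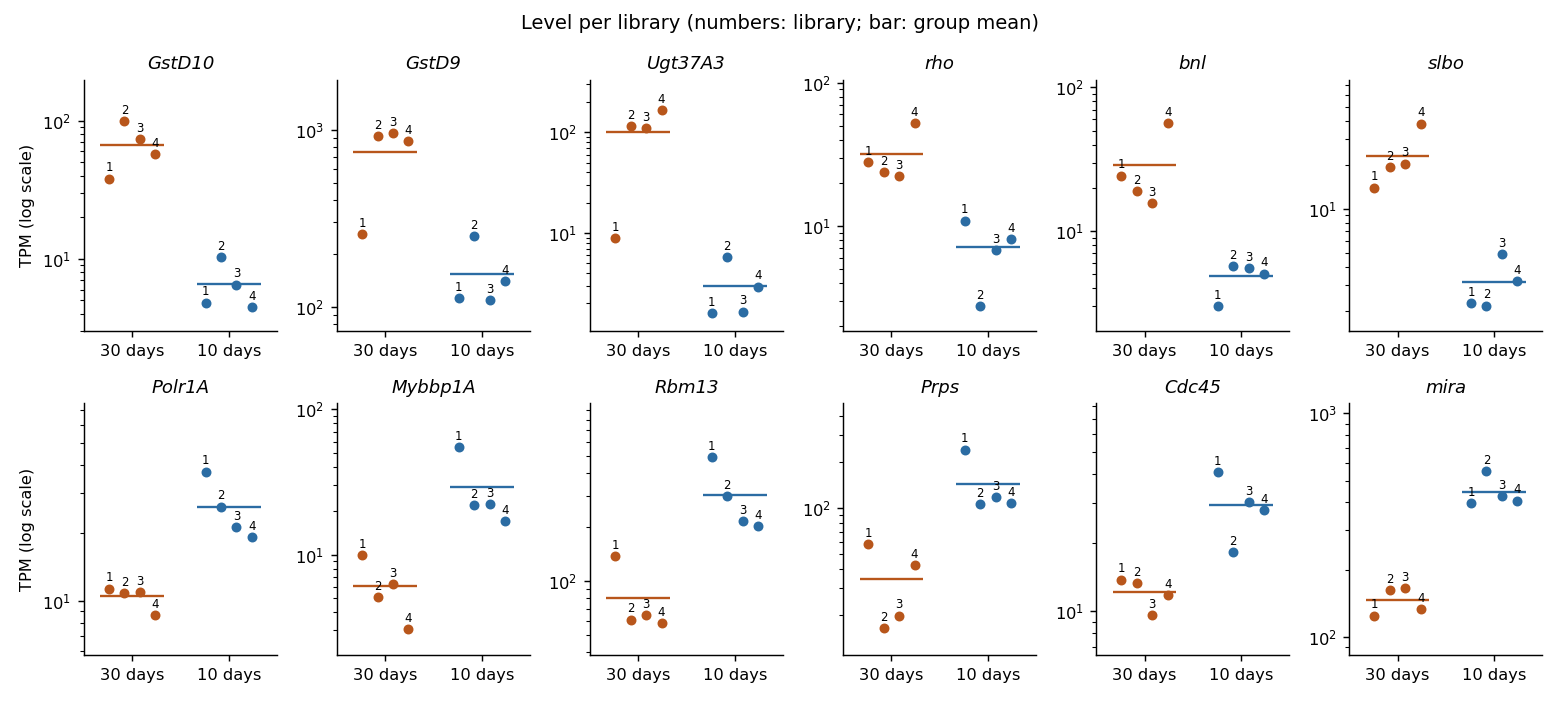
TPM (log scale) in each library for 12 genes, 30-day libraries left and 10-day libraries right in each panel, with the library number beside each point and a bar at the group mean. The upper 6 genes rose and the lower 6 fell; in GstD9 and Ugt37A3 30-day library 1 lies nearest to the 10-day libraries.

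Single genes of EGFR signalling changed, with few calls on the whole list. rho, the protease that releases EGFR ligands, had 27.99, 23.9, 22.3 and 52.4 TPM in the 30-day libraries, against 10.9, 2.78, 6.76 and 8.08 TPM in the 10-day libraries (log2 fold change 2.04 ± 0.37, adjusted p = 0.00708). It overlaps Ptp61F on the opposite strand over 5134 bases, which had a mean of 151 TPM, so their reads may not be separable. kek1, a transmembrane inhibitor of EGFR, had 9.50, 10.3, 11.4 and 24.04 TPM in the 30-day libraries, against 4.91, 0.872, 1.38 and 1.69 TPM in the 10-day libraries (log2 fold change 2.26 ± 0.47, adjusted p = 0.00996). Library 4 was the highest 30-day library for both, and the groups did not overlap for either. spi, the main ligand that rho releases, was lower in each 30-day library (205 ± 29.04 TPM at 30 days and 385 ± 116 TPM at 10 days, SD over 4 libraries; log2 fold change −0.87 ± 0.20, adjusted p = 0.0145), but its call was lost with median-ratio scaling (adjusted p = 0.0890). These were the 2 higher members (7.69%) and the 1 lower member (3.85%) among 26 tested genes of the EGFR and Ras list. The shares of all genes were 4.44% and 12.1%. The list median was 0.004 relative to the median gene.

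The fibroblast growth factor gene bnl, known for drawing tracheal branches towards tissues, had 24.4, 19.1, 15.7 and 56.6 TPM in the 30-day libraries, against 3.02, 5.72, 5.54 and 5.07 TPM in the 10-day libraries, and the lowest 30-day library was above the highest 10-day library (log2 fold change 2.21 ± 0.42, adjusted p = 0.00733). The ligand gene hh had 13.2, 5.87, 9.87 and 9.20 TPM in the 30-day libraries, against 1.61, 1.60, 3.13 and 4.12 TPM in the 10-day libraries (log2 fold change 1.56 ± 0.36, adjusted p = 0.0144), but lost its call without library 1 of both ages (adjusted p = 0.0561). The regulators slbo, sr and trbl were also higher in each 30-day library. slbo, a C/EBP transcription factor of border cell migration, had 13.9, 19.2, 20.4 and 38.3 TPM in the 30-day libraries, against 2.26, 2.18, 4.91 and 3.19 TPM in the 10-day libraries (log2 fold change 2.49 ± 0.41, adjusted p = 0.00576). trbl, a pseudokinase that promotes degradation of the String phosphatase, had 204, 267, 239.9 and 665 TPM in the 30-day libraries, against 68.1, 101, 60.9 and 61.1 TPM in the 10-day libraries (log2 fold change 2.09 ± 0.34, adjusted p = 0.00576). sr, an EGR-type transcription factor known from tendon cells, had 2.29, 4.78, 3.17 and 7.80 TPM in the 30-day libraries, against 0.422, 0.102, 0.145 and 0.189 TPM in the 10-day libraries (log2 fold change 2.09 ± 0.34, adjusted p = 0.00576). Library 4 was the highest 30-day library for bnl, slbo, trbl and sr. hh, sr and trbl were picked after their values were seen.

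Of 28 genes for JNK signalling, wounding and apoptosis 3 rose (10.7%) and 2 fell (7.14%), against 4.44% and 12.1% of all genes. In all 3 fits 3 rose, against 3.28% of all genes. The proapoptotic gene rpr had 9.32, 14.2, 15.4 and 18.8 TPM in the 30-day libraries, against 3.75, 2.31, 2.99 and 3.84 TPM in the 10-day libraries, with no overlap (log2 fold change 1.85 ± 0.33, adjusted p = 0.00690). The tumour necrosis factor ligand gene egr was lower in each 30-day library (71.2 ± 1.74 TPM at 30 days and 118 ± 17.1 TPM at 10 days, SD, n = 4 each), but its call (log2 fold change −0.71 ± 0.17, adjusted p = 0.0187) was lost with median-ratio scaling and without 30-day library 3 or 10-day library 3. The matrix metalloproteinase gene Mmp2 had 37.8, 23.4, 27.1 and 47.96 TPM in the 30-day libraries, against 16.7, 5.31, 11.3 and 11.5 TPM in the 10-day libraries, and its call (log2 fold change 1.56 ± 0.40, adjusted p = 0.0225) was lost without 30-day library 4 (adjusted p = 0.0613). Arc1, whose product forms capsids that carry RNA, had 1083, 1059, 1185 and 1359 TPM in the 30-day libraries, against 215, 462, 369.6 and 356 TPM in the 10-day libraries (log2 fold change 1.78 ± 0.36, adjusted p = 0.00887). Its paralogue Arc2 had 184, 458, 424 and 495 TPM in the 30-day libraries, against 71.3, 147, 134 and 118 TPM in the 10-day libraries (log2 fold change 1.68 ± 0.32, adjusted p = 0.00756). The groups of both genes did not overlap, and both were picked after their values were seen.

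Markers of absorptive cells were partly higher. Of 24 enterocyte genes 6 rose and 1 fell, against 4.44% and 12.1% of all genes, with 5 and 0 in all 3 fits. The list median was 1.46 relative to the median gene. With 1 library left out 2 to 7 rose. The lower member, cad (log2 fold change −0.89 ± 0.28, adjusted p = 0.0464 by limma), lost its call with median-ratio scaling and without 10-day library 1. The junction gene Ssk had 551, 363, 399 and 323 TPM in the 30-day libraries, against 137, 109, 111 and 108 TPM in the 10-day libraries (log2 fold change 1.78 ± 0.37, adjusted p = 0.00996). The membrane protein gene mex1 of the midgut brush border had 93.3, 70.7, 68.6 and 53.8 TPM in the 30-day libraries, against 10.99, 19.1, 25.6 and 33.3 TPM in the 10-day libraries (log2 fold change 1.72 ± 0.34, adjusted p = 0.00872). Both had all 30-day libraries above all 10-day libraries, with library 1 the highest at 30 days. Tsp2A and mesh, which build the same smooth septate junction as Ssk, were higher in each 30-day library, and each lost its call in 6 of the 8 fits without a library (adjusted p up to 0.0651 and 0.0652). Ssk and Tsp2A overlap CG42674 and MTPAP on the opposite strand, at means of 48.9 and 10.9 TPM, so their reads may not be separable. The enterocyte transcription factor gene nub had 27.5, 17.1, 7.35 and 22.2 TPM in the 30-day libraries, against 1.66, 1.74, 13.7 and 8.64 TPM in the 10-day libraries, so the groups overlapped, and it did not pass (log2 fold change 1.65 ± 0.69, adjusted p = 0.105). The other defining gene, Myo31DF, had 193, 229, 178 and 173 TPM in the 30-day libraries, against 84.4, 152, 256 and 255.5 TPM in the 10-day libraries. It did not pass either (log2 fold change 0.17 ± 0.31, adjusted p = 0.707 by limma), and was at −0.16 without 10-day library 1. Of 22 Jonah and trypsin proteases 0 rose and 0 fell (4 and 0 at an unadjusted p under 0.05), with a list median 1.16 relative to the median gene. Of 10 maltases and amylases, which digest sugars, 3 rose and 0 fell, against 4.44% and 12.1% of all genes (7 and 0 at an unadjusted p under 0.05). Mal-A4 kept its call throughout, with 12.9, 32.8, 27.5 and 34.7 TPM in the 30-day libraries, against 1.09, 4.77, 3.42 and 2.37 TPM in the 10-day libraries (log2 fold change 2.84 ± 0.43, adjusted p = 0.00383). In a bulk sample of sorted cells, fewer or more cells of a type and less or more RNA per cell cannot be told apart.

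Hormone and heat shock genes depended on 10-day library 1. Of 25 enteroendocrine genes 3 rose and 0 fell with all libraries (8 and 2 at an unadjusted p under 0.05), against 4.44% and 12.1% of all genes. Without 10-day library 1, 13 rose, against 4.42% of all genes. Their summed level was 1887, 2868, 2750.4 and 1899.9 TPM in the 30-day libraries, against 3628, 865, 965 and 949 TPM in the 10-day libraries. Library 1 at 10 days had more than any 30-day library, and the other 10-day libraries had less than any of them. The tachykinin gene Tk had 233, 731, 662 and 367 TPM in the 30-day libraries, against 1150.0, 62.5, 103 and 119 TPM in the 10-day libraries, and the allatostatin gene AstA had 60.3, 63.2, 62.7 and 33.98 TPM in the 30-day libraries, against 96.5, 2.37, 6.89 and 6.04 TPM in the 10-day libraries. Neither passed (log2 fold change 1.38 ± 0.73, adjusted p = 0.190, and log2 fold change 2.23 ± 0.82, adjusted p = 0.0760), and without 10-day library 1 the adjusted p was 0.00647 for Tk and 0.00245 for AstA. Mip, the gene of another gut peptide, rose in each of the fits (10.04 ± 2.87 TPM at 30 days and 2.47 ± 2.39 TPM at 10 days, SD over 4 libraries; log2 fold change 1.84 ± 0.42, adjusted p = 0.0135).

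Of 24 heat shock proteins and co-chaperones 0 rose and 0 fell (8 and 0 at an unadjusted p under 0.05). With median-ratio scaling 4 rose, against 5.59% of all genes, and 13 rose without 10-day library 1, against 4.42%. The 7 small heat shock protein genes, 6 of them tested, summed to 5674, 2371, 2114 and 4873 TPM in the 30-day libraries, against 5766, 288, 245 and 533 TPM in the 10-day libraries. Library 1 at 10 days was as high as the highest 30-day library, and the other 10-day libraries were below all 30-day libraries. Hsp23, a small chaperone gene, had 1531, 907, 830.1 and 1681 TPM in the 30-day libraries, against 1364, 53.4, 55.8 and 132 TPM in the 10-day libraries (log2 fold change 2.94 ± 0.96, adjusted p = 0.0552, 0.0472 with median-ratio scaling and 0.00957 without 10-day library 1). The inducible genes Hsp70Aa and Hsp70Ab overlap in the files and had nearly the same values, such as 3276, 1314, 1317 and 3808 TPM in the 30-day libraries, against 2496, 89.7, 206 and 522 TPM in the 10-day libraries for Hsp70Aa. Heat shock genes also respond to handling, and whether sorting or dissociation time differed between libraries was not tested.

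**Figure D3:**
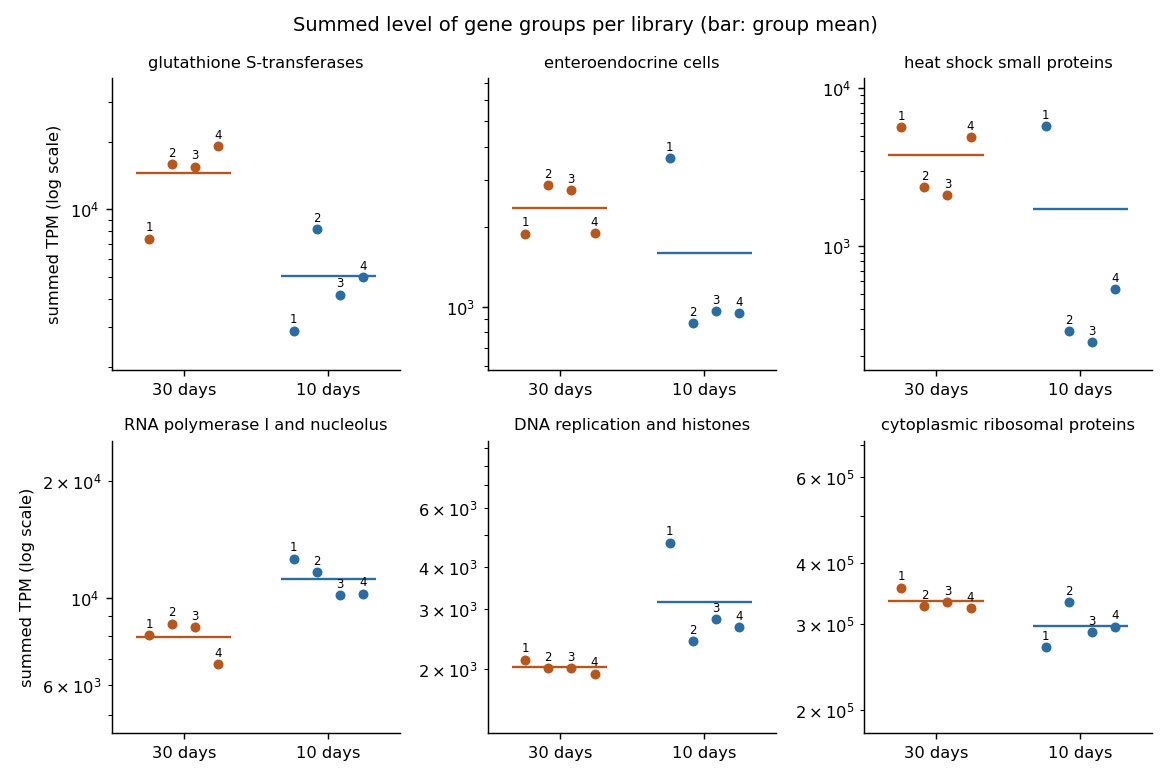
Summed TPM (log scale) of 6 gene groups in each library, 30-day libraries left and 10-day libraries right in each panel, with library numbers beside the points. Library 1 at 10 days lies with or above the 30-day libraries for enteroendocrine and small heat shock genes, below all others for glutathione S-transferases, and above all others for DNA replication.

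Some genes for cilia and flagella were higher, on a list written after values had been seen. Of its 20 tested genes 8 rose and 2 fell, against 4.44% and 12.1% of all genes, and 6 rose in all 3 fits, against 3.28%. IFT54, a component of intraflagellar transport, had 17.4, 26.3, 29.00 and 14.01 TPM in the 30-day libraries, against 6.91, 6.04, 6.81 and 5.62 TPM in the 10-day libraries (log2 fold change 1.57 ± 0.32, adjusted p = 0.00887). Cep290, of the ciliary transition zone, had 3.59, 4.07, 3.86 and 7.31 TPM in the 30-day libraries, against 1.56, 0.300, 0.940 and 0.808 TPM in the 10-day libraries (log2 fold change 1.58 ± 0.31, adjusted p = 0.00833). Its partner dila had 16.3, 8.11, 9.07 and 9.31 TPM in the 30-day libraries, against 0.835, 1.18, 2.08 and 2.02 TPM in the 10-day libraries (log2 fold change 2.19 ± 0.37, adjusted p = 0.00576). The groups did not overlap for any of these. iav, an ion channel of sensory cilia, and Rsph1, a radial spoke protein gene, were at low levels at both ages and rose by log2 fold changes of 1.64 ± 0.33 and 1.76 ± 0.38. Of 16 genes of the centriole and ciliary base 2 rose and 5 fell, against 4.44% and 12.1% of all genes. Cep97, which caps centrioles, was among the lower ones (4.63 ± 0.474 TPM at 30 days and 14.3 ± 0.812 TPM at 10 days, SD over 4 libraries, log2 fold change −1.44 ± 0.21, adjusted p = 0.00383). Other low genes that rose encode paralogues of mitochondrial proteins: ATPsynbetaL had 9.37, 9.22, 13.9 and 6.32 TPM in the 30-day libraries, against 1.38, 0.140, 0.395 and 0.418 TPM in the 10-day libraries (log2 fold change 2.77 ± 0.46, adjusted p = 0.00576). Porin2 had 16.6, 20.8, 18.3 and 10.2 TPM in the 30-day libraries, against 8.30, 0.472, 3.86 and 2.30 TPM in the 10-day libraries (log2 fold change 2.14 ± 0.45, adjusted p = 0.0100). Of 62 tested nuclear genes of oxidative phosphorylation, ATPsynbetaL was the 1 member that rose, and 0 fell (3 and 11 at an unadjusted p under 0.05). Of all 8695 genes 799 rose and 2322 fell at that unadjusted cutoff.

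Genes for making ribosomes had the largest share of lower members among the lists examined. Of 50 tested genes of RNA polymerase I and the nucleolus 31 fell and 0 rose (38 and 0 at an unadjusted p under 0.05), against 12.1% and 4.44% of all genes. Of these 21 fell in all 3 fits, against 3.93% of all genes, 22 to 29 fell when 1 library was left out, and 20 fell in each of these 8 fits. The list median was −0.98, or −0.70 relative to the median gene, and −0.74 with median-ratio scaling. All 30-day libraries lay below all 10-day libraries for 33 members, against 20.5% of all genes. With quantile normalization 18 fell, against 333 of all genes. With median-ratio scaling and without 10-day library 1 together 14 fell, against 233 of all genes, in an alternative added after seeing the data. The list holds a few genes with products that act elsewhere, among them rin, Uba1 and Sin1.

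Several subunit genes of RNA polymerase I fell. Polr1A, the gene of the largest subunit, had 11.4, 10.9, 10.99 and 8.68 TPM in the 30-day libraries, against 37.3, 26.1, 21.2 and 19.1 TPM in the 10-day libraries (log2 fold change −1.19 ± 0.24, adjusted p = 0.00872). Polr1B, for the other catalytic subunit, had 8.15, 7.13, 4.53 and 4.49 TPM in the 30-day libraries, against 27.2, 19.1, 17.1 and 15.4 TPM in the 10-day libraries (log2 fold change −1.56 ± 0.25, adjusted p = 0.00576). Polr1C, shared with RNA polymerase III, had 9.98, 3.27, 3.87 and 5.02 TPM in the 30-day libraries, against 30.5, 18.96, 15.1 and 12.3 TPM in the 10-day libraries (log2 fold change −1.65 ± 0.37, adjusted p = 0.0125). No 30-day library reached the lowest 10-day library for any of them. Polr1A lost its call with quantile normalization (adjusted p = 0.0612). The small subunit gene Polr1H had 7.18, 3.04, 0.282 and 3.65 TPM in the 30-day libraries, against 23.8, 18.2, 15.9 and 12.8 TPM in the 10-day libraries (log2 fold change −2.29 ± 0.53, adjusted p = 0.0151), so that 30-day library 3 was near 0. Polr1E was lower in each 30-day library with 24.01, 47.3, 38.6 and 17.5 TPM in the 30-day libraries, against 131, 89.5, 56.8 and 61.03 TPM in the 10-day libraries, and its groups did not overlap. Its call (log2 fold change −1.40 ± 0.37, adjusted p = 0.0257) was lost with median-ratio scaling (adjusted p = 0.0805), without 10-day library 1 (adjusted p = 0.0532) and without 30-day library 1 or 4. Polr1F and Polr1D did not pass (−1.17 ± 0.43 and −0.63 ± 0.27). Of the factors that recruit the polymerase, TAF1B fell (−0.97 ± 0.22), and so did nclb, a nucleolar protein gene needed for transcription of ribosomal RNA (−1.42 ± 0.28). Tif-IA, the initiation factor, was below all 10-day libraries in each 30-day library, but its call (log2 fold change −1.13 ± 0.35, adjusted p = 0.0434) was kept in only 2 of the 8 fits without a library and was lost with median-ratio scaling (adjusted p = 0.120) and without 10-day library 1 (adjusted p = 0.0893).

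Assembly factors of both ribosomal subunits fell as well. Mybbp1A had 9.87, 5.07, 6.26 and 3.05 TPM in the 30-day libraries, against 54.98, 22.04, 22.4 and 17.1 TPM in the 10-day libraries (log2 fold change −2.03 ± 0.37, adjusted p = 0.00690). The DEAD-box helicase gene pit had 60.8, 55.97, 57.5 and 29.9 TPM in the 30-day libraries, against 235, 168, 148 and 119 TPM in the 10-day libraries (log2 fold change −1.70 ± 0.33, adjusted p = 0.00793). Rbm13, which acts on the large subunit, had 138, 60.9, 64.8 and 58.05 TPM in the 30-day libraries, against 492, 298, 215 and 204 TPM in the 10-day libraries (log2 fold change −1.90 ± 0.32, adjusted p = 0.00603). bys, which acts on the small subunit, had 30.3, 24.7, 17.9 and 14.9 TPM in the 30-day libraries, against 106, 59.4, 59.5 and 57.8 TPM in the 10-day libraries (log2 fold change −1.64 ± 0.31, adjusted p = 0.00733). In each of these 4 genes 10-day library 1 was the highest library, and the remaining 10-day libraries were still above all 30-day libraries. wcd and kz, of small subunit processing, fell by log2 fold changes of −1.49 ± 0.26 and −1.45 ± 0.30, and vito, Nopp140 and Ns1 by −1.41 ± 0.21, −1.17 ± 0.21 and −0.96 ± 0.19. Of the 8 core proteins of the particles that modify ribosomal RNA, 3 were called lower with all libraries: Nop10 (log2 fold change −1.998 ± 0.56, adjusted p = 0.0317) and NHP2 (log2 fold change −1.18 ± 0.34, adjusted p = 0.0339) of the H/ACA particles, and hoip (log2 fold change −1.69 ± 0.50, adjusted p = 0.0370), which also acts in the spliceosome. These calls were lost with median-ratio scaling (adjusted p = 0.0691, 0.119 and 0.0904) and without 10-day library 1 (adjusted p = 0.0616, 0.0691 and 0.0725). They were kept in 2, 3 and 2 of the 8 fits without a library. The other 5, which are Fib, nop5, Nop56, Nop60B and Gar1, did not pass (−0.53 ± 0.20, −0.57 ± 0.23, −0.73 ± 0.39, −0.56 ± 0.31 and −0.63 ± 0.29, at adjusted p = 0.0764, 0.103, 0.195, 0.210 and 0.135). Myc, the transcription factor gene known for driving this programme, had 216, 101, 139.5 and 218 TPM in the 30-day libraries, against 382, 115, 255 and 212 TPM in the 10-day libraries, with overlapping groups (log2 fold change −0.46 ± 0.37, adjusted p = 0.379).

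**Figure D4:**
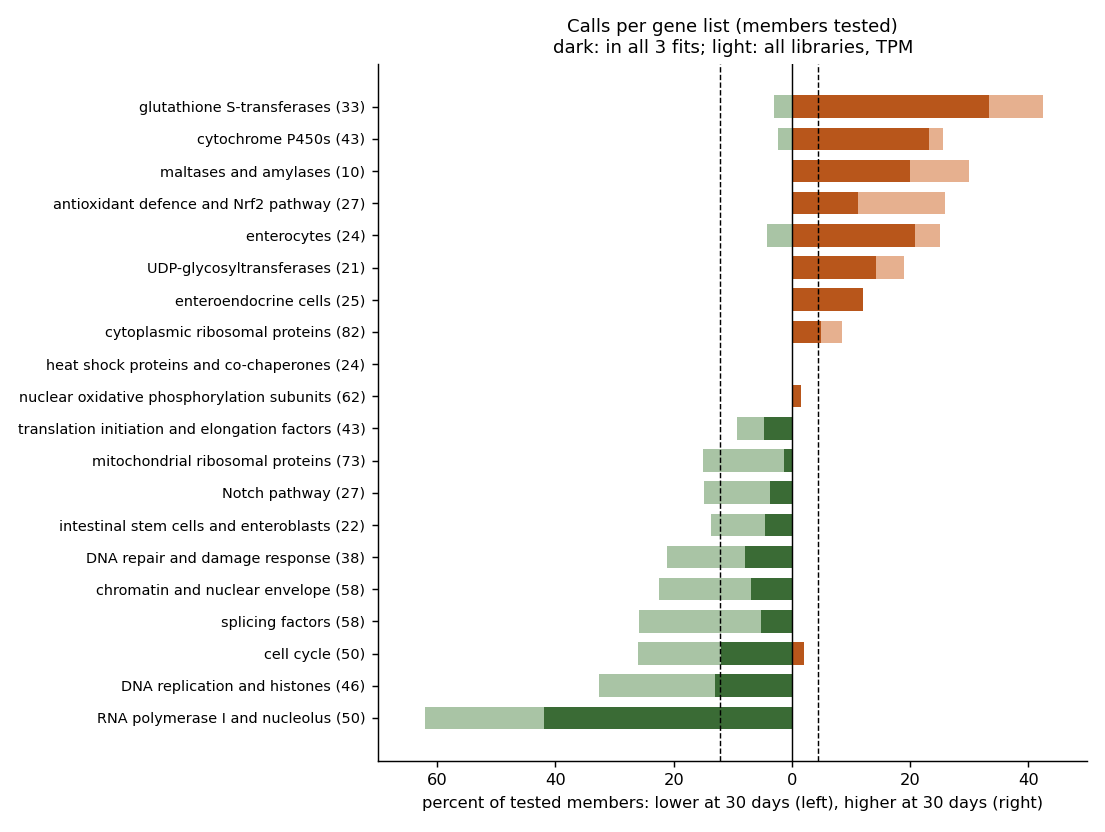
Percent of tested members that rose (right of 0) and fell (left of 0) at 30 days against 10 days for 20 gene lists, with dark bars for calls in all 3 fits, light bars for calls with all libraries on TPM, and dashed lines at the 4.44% and 12.1% of all genes. The RNA polymerase I and nucleolus list reaches 31 of 50 lower, and the glutathione S-transferases 14 of 33 higher.

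Short RNAs that guide these modifications were called lower about as often as all genes. Of 108 small nucleolar RNAs tested, a list added after values had been seen, 14 fell (13.0%) and 1 rose, against 12.1% and 4.44% of all genes, with 7 and 1 in all 3 fits. snoRNA:Me28S-G1083a had 8.69, 0.438, 0.690 and 1.15 TPM in the 30-day libraries, against 15.9, 13.9, 14.2 and 8.70 TPM in the 10-day libraries (log2 fold change −2.38 ± 0.52, adjusted p = 0.0118). snoRNA:Me28S-U2134a had 3.89, 0.330, 5.50 and 1.23 TPM in the 30-day libraries, against 10.4, 13.3, 24.5 and 19.3 TPM in the 10-day libraries (log2 fold change −2.45 ± 0.56, adjusted p = 0.0137). For the first of these the highest 30-day library was just under the lowest 10-day library. Each lies inside a host gene that is transcribed at a much higher level, Nop60B and RpL13A in these 2 cases, so reads of the small RNA and of its host may not be separable. snoRNA:229, which overlaps Fib, was listed at 0 in 30-day libraries 2 to 4 and at 7.16, 4.39, 6.33 and 5.92 TPM in the 10-day libraries.

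The genes of the ribosomal proteins themselves gave other counts. Of 82 cytoplasmic ribosomal protein genes 7 rose (8.54%) and 0 fell (15 and 0 at an unadjusted p under 0.05), against 4.44% and 12.1% of all genes. With median-ratio scaling 15 rose, against 5.59% of all genes, and 4 rose in all 3 fits, against 3.28%. Their summed level was 356040.0, 326820.0, 332620.0 and 322900.0 TPM in the 30-day libraries, against 268660.0, 332680.0, 288900.0 and 296230.0 TPM in the 10-day libraries, so they held a large share of the transcripts at both ages and the groups overlapped, with 10-day library 1 the lowest. RpS30 and RpL27A rose by log2 fold changes of 0.67 ± 0.12 and 0.56 ± 0.11, but with quantile normalization, which ties the most abundant genes across libraries, 1 member of the list rose and 1 fell and RpL27A lost its call. The list median of 0.10 and that of the nucleolar list, −0.98, lie on opposite sides of the median gene at −0.28, and on opposite sides of 0 under median-ratio scaling, at 0.35 and −0.74; the difference between the lists was not tested. Of 73 mitochondrial ribosomal protein genes 11 fell and 0 rose, against 12.1% and 4.44% of all genes, and 1 fell in all 3 fits, namely mRpS18C (13.5, 5.55, 6.09 and 10.6 TPM in the 30-day libraries, against 39.6, 33.4, 29.6 and 30.99 TPM in the 10-day libraries; log2 fold change −1.86 ± 0.26, adjusted p = 0.00335). Of 33 tRNA synthetases 5 fell and of 43 translation factors 4 fell, against 12.1% of all genes, with 3 and 2 in all 3 fits.

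**Figure D5:**
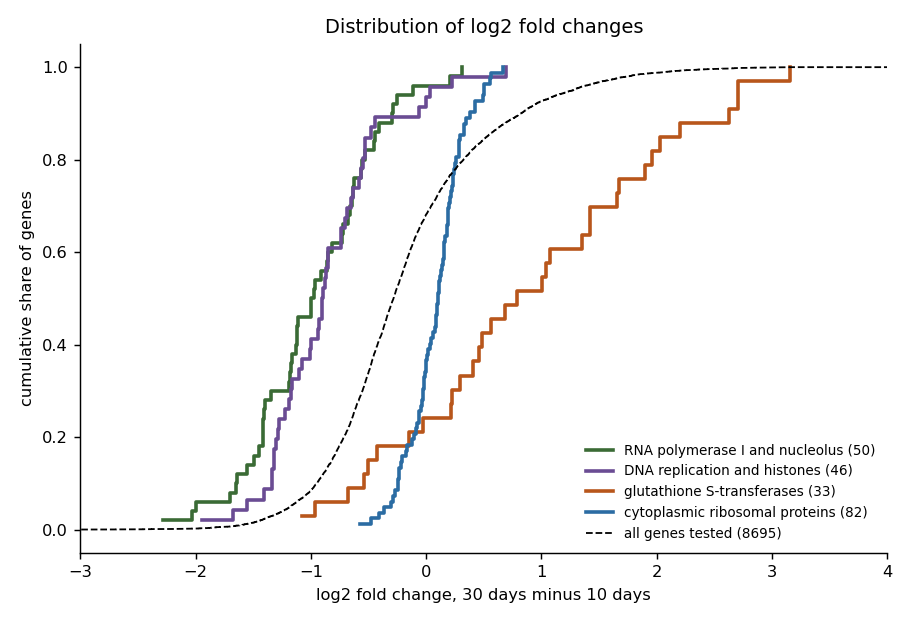
Cumulative share of genes (y axis) against log2 fold change, 30 days minus 10 days, on the log2(TPM + 1) scale (x axis) for the 50 nucleolar genes, 46 replication and histone genes, 33 glutathione S-transferases, 82 cytoplasmic ribosomal protein genes and all 8695 genes tested. The medians of these curves, in the same order, are −0.98, −0.90, 0.78, 0.10 and −0.28.

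Some genes of nucleotide supply and of the other RNA polymerases were lower, on lists that were both added after values had been seen. Of 30 genes of purine and pyrimidine synthesis 10 fell and 0 rose, against 12.1% and 4.44% of all genes. In all 3 fits 5 fell and 0 rose, against 3.93% and 3.28%. Prps, which makes the activated ribose for both kinds of nucleotide, had 58.3, 16.5, 19.9 and 42.6 TPM in the 30-day libraries, against 241, 106, 118 and 108 TPM in the 10-day libraries (log2 fold change −2.12 ± 0.39, adjusted p = 0.00708). Ctps, the CTP synthase gene, had 25.7, 27.4, 23.6 and 24.3 TPM in the 30-day libraries, against 84.8, 76.4, 57.2 and 55.2 TPM in the 10-day libraries (log2 fold change −1.38 ± 0.21, adjusted p = 0.00383). Prat, the first committed enzyme of purine synthesis, had 8.09, 4.19, 6.61 and 7.60 TPM in the 30-day libraries, against 20.1, 12.2, 18.9 and 19.5 TPM in the 10-day libraries (log2 fold change −1.30 ± 0.25, adjusted p = 0.00759). The groups did not overlap for any of the 3. Annotated transcripts on both strands overlap Ctps. The pentose phosphate enzyme gene Rpe and the salvage kinase gene Uck fell by log2 fold changes of −1.57 ± 0.33 and −1.03 ± 0.18. SpdS, the spermidine synthase gene, had 3.93, 3.90, 4.36 and 3.62 TPM in the 30-day libraries, against 16.8, 20.98, 14.6 and 16.3 TPM in the 10-day libraries, nearly the same value in each 30-day library (log2 fold change −1.87 ± 0.37, adjusted p = 0.00856). Of 21 subunits of RNA polymerases II and III 5 fell, against 12.1% of all genes. In all 3 fits 2 of them fell, against 3.93% of all genes: Polr2F, shared by all 3 polymerases (−1.38 ± 0.25), and Polr3B (−1.05 ± 0.20). Maf1, a repressor of RNA polymerase III, fell too (−1.11 ± 0.21).

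Some genes for copying and dividing the genome were lower, with counts that changed when 10-day library 1 was left out. Of 46 replication and histone genes 15 fell and 0 rose, against 12.1% and 4.44% of all genes. At an unadjusted p under 0.05, 30 fell and 0 rose, against 2322 and 799 of all 8695 genes. Without 10-day library 1, 7 fell, against 9.53% of all genes, and 6 fell in all 3 fits, against 3.93%. With median-ratio scaling and without 10-day library 1 together 3 fell, against 233 of all genes. Over the 8 fits without a library 4 to 24 fell, against 436 to 1222 of all genes. Their summed level was 2128, 2009.9, 2004 and 1936 TPM in the 30-day libraries, against 4729, 2410.1, 2809 and 2663 TPM in the 10-day libraries. Each 30-day library was below each 10-day library, and 10-day library 1 was far above the others. Fen1, the flap endonuclease of lagging strand synthesis, had 14.1, 11.2, 4.53 and 4.68 TPM in the 30-day libraries, against 77.6, 22.6, 25.7 and 24.5 TPM in the 10-day libraries (log2 fold change −1.94 ± 0.42, adjusted p = 0.0110). Cdc45, of the replicative helicase, had 13.8, 13.3, 9.66 and 11.8 TPM in the 30-day libraries, against 40.9, 18.2, 30.1 and 27.8 TPM in the 10-day libraries (log2 fold change −1.16 ± 0.24, adjusted p = 0.0103), and the origin recognition genes Orc2 and Orc3 fell by log2 fold changes of −1.23 ± 0.28 and −1.41 ± 0.30. The whole of Cdc45 lies within su(w[a]) on the opposite strand, which had a mean of 133 TPM, so their reads may not be separable. PCNA, the sliding clamp gene, did not pass (30.3, 35.6, 37.6 and 36.7 TPM in the 30-day libraries, against 134, 31.7, 40.9 and 40.4 TPM in the 10-day libraries; log2 fold change −0.55 ± 0.42, adjusted p = 0.349), and 10-day library 1 alone was far above the 30-day libraries.

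Of 50 cell cycle genes 13 fell and 1 rose, against 12.1% and 4.44% of all genes. In all 3 fits 6 fell and 1 rose, against 3.93% and 3.28% of all genes. With median-ratio scaling and without 10-day library 1 together 1 fell, against 233 of all genes. When a library was left out 7 to 19 fell, against 436 to 1222 of all genes. barr, of the condensin complex, had 5.87, 5.20, 2.37 and 4.43 TPM in the 30-day libraries, against 28.2, 12.96, 17.8 and 14.7 TPM in the 10-day libraries (log2 fold change −1.82 ± 0.31, adjusted p = 0.00603). pim, the fly securin, had 3.37, 1.002, 2.49 and 7.10 TPM in the 30-day libraries, against 24.9, 10.2, 10.1 and 11.03 TPM in the 10-day libraries (log2 fold change −1.82 ± 0.42, adjusted p = 0.0142). cid, the centromeric histone gene, had 6.44, 2.37, 3.42 and 2.16 TPM in the 30-day libraries, against 28.8, 6.82, 14.3 and 12.1 TPM in the 10-day libraries, and its call (log2 fold change −1.77 ± 0.43, adjusted p = 0.0173) was lost without 30-day library 2 (adjusted p = 0.0507). Cenp-C, E2f2 and Cdk2 fell by log2 fold changes of −1.30 ± 0.30, −1.13 ± 0.24 and −1.42 ± 0.31. The mitotic genes CycB and stg did not pass, with 3.58, 5.04, 3.23 and 1.98 TPM in the 30-day libraries, against 47.3, 4.16, 9.22 and 8.94 TPM in the 10-day libraries for CycB and 3.38, 2.63, 1.60 and 5.38 TPM in the 30-day libraries, against 39.4, 1.53, 6.59 and 5.22 TPM in the 10-day libraries for stg. In both, 10-day library 1 was several times higher than any other library. Of 38 repair genes 8 fell, of 58 chromatin and nuclear envelope genes 13, and of 21 nuclear pore genes 8, with 3, 4 and 1 in all 3 fits, against 12.1% and 3.93% of all genes. Among the chromatin genes were the heterochromatin protein 1 paralogues HP1b and HP1c (−1.30 ± 0.23 and −1.06 ± 0.19) and Polycomb, Pc (−0.94 ± 0.21). Of 58 splicing factors 15 fell, 3 of them in all 3 fits, against 12.1% and 3.93% of all genes.

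Genes that define the progenitor state were called lower about as often as all genes, but their summed TPM was lower at 30 days. It was 2705, 2191, 2252 and 2415 TPM in the 30-day libraries, against 4105, 2740, 4238 and 4005 TPM in the 10-day libraries, without overlap on this scale. However, 30-day library 1 came close to 10-day library 2. Median-ratio scaling divides these libraries by 0.988 and 1.03, which reverses their order, so the groups then overlap. The list median was −0.60, or −0.32 relative to the median gene, and −0.35 with median-ratio scaling. Without 10-day library 1 it was −0.39, against −0.31 for all genes. Of 22 stem cell and enteroblast genes 7 fell and 1 rose at an unadjusted p under 0.05, against 2322 and 799 of all 8695 genes. At an adjusted p under 0.05, 3 fell and 0 rose, against 12.1% and 4.44% of all genes, with 1 and 0 in all 3 fits. That gene was mira, the adaptor of asymmetric division (125, 163, 165 and 134 TPM in the 30-day libraries, against 395, 554, 425 and 407 TPM in the 10-day libraries; log2 fold change −1.59 ± 0.29, adjusted p = 0.00690). The Notch ligand gene Dl of stem cells had 6.05, 2.70, 3.08 and 5.48 TPM in the 30-day libraries, against 114, 3.30, 7.85 and 8.08 TPM in the 10-day libraries, with overlapping groups (log2 fold change −1.46 ± 0.80, adjusted p = 0.205). Sox100B, klu and N, for 2 transcription factors of progenitors and the Notch receptor, did not pass (−0.035 ± 0.20, −0.65 ± 0.30 and −0.48 ± 0.27), but klu was called lower without 10-day library 1 (−0.93, adjusted p = 0.0362). Of 27 Notch pathway genes 4 fell, a share near the 12.1% of all genes, and 1 to 7 fell with a library left out. The 1 member lower in all 3 fits was O-fut1, which adds fucose to the Notch receptor (3.49, 1.47, 1.17 and 0.539 TPM in the 30-day libraries, against 13.1, 8.36, 9.47 and 7.10 TPM in the 10-day libraries; log2 fold change −2.06 ± 0.38, adjusted p = 0.00729). Of 25 insulin and TOR genes 3 fell, again near the share of all genes, and 5 fell without 10-day library 1. Tsc1, an inhibitor of TOR, was the 1 member that fell in all 3 fits (−0.95 ± 0.22). The insulin receptor gene InR and the transcription factor gene foxo did not pass (adjusted p = 0.432 and 0.387).

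The lowest fold change among genes named by size was that of Drat, with 20.1, 13.6, 14.3 and 13.6 TPM in the 30-day libraries, against 96.8, 92.6, 143 and 109 TPM in the 10-day libraries (dm6 chromosome 2R, 7526118 to 7532981). No 30-day library came near a 10-day library (log2 fold change −2.76 ± 0.27, adjusted p = 0.000452). Several pathways known in the ageing gut gave no call with all libraries: 0 of 16 Wnt genes, 0 of 17 integrin and basement membrane genes and 0 of 31 lipid metabolism genes passed in either direction by limma, with 0 higher and 3 lower, 0 higher and 1 lower, and 4 higher and 2 lower at an unadjusted p under 0.05. With median-ratio scaling 0, 0 and 1 rose and 0, 0 and 0 fell. Without 10-day library 1 0, 0 and 1 rose and 0, 0 and 1 fell. Among the fits without a library 0 to 1 integrin and basement membrane genes fell. Of 17 immune genes of the IMD pathway 1 fell and 0 rose (3 and 1 at an unadjusted p under 0.05). At that unadjusted cutoff 2322 of all 8695 genes fell and 799 rose.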

How the data were processed

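Per the submitters' processing notes, the authors used STAR 2.7.1a, StringTie and the dm6 genome. Neither the annotation release nor the strand setting is stated there, so overlapping, antisense and near-identical genes are uncertain. The authors deposited 1 table per library with coverage, FPKM and TPM of each gene. The deposited TPM column is a signal in which assembled loci sum to 1000000 and annotated genes stand on top, with 935996 to 984051 in the 8 libraries. Annotated genes alone were rescaled to 1000000. Deposited coverage and FPKM served only to estimate aligned bases. The tables used here hold no read counts, so the counting error of each value is unknown.

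Symbols matched for 17068 of 17137 genes. Genes with a mean of at least 1 TPM over the 8 libraries were tested on log2(TPM + 1) with limma 3.58.1 in R 4.3.3 (trend and robust variances, 12 midgut libraries, two-sided, Benjamini-Hochberg over 8695 genes). Fold changes on this scale understate the change of low genes. Errors are SE for fold changes and SD for TPM. Figures were drawn with matplotlib 3.10.9. The fit was tested on simulated data: at a simulated log2 change of 2, 76% of 50 higher and 90% of 50 lower genes were called, and at a change of 1, 36% and 28%. The simulated noise was independent between genes and libraries, and the other genes had no shift. The real libraries have shared deviations and a shifted median gene, so these shares need not hold for them.

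The members, 56 gene lists and 4 further lists were chosen with earlier results of these data known. The rule for named genes took the 20 largest changes per direction, with a mean of at least 5 TPM in the higher group, no overlap and a call kept without 10-day library 1, up to 4 called or 3 abundant members per list, and the defining markers. The other genes in the text were chosen after their values were seen.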

Additional observations from a re-analysis of the deposited data

Results flagged for a closer look

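Each group of 4 libraries was searched for a highest or lowest library that stood apart from the other 3, with a gap above the critical value of Dixon for 4 values. Of 322 groups of values examined, 53 had such a library. Chance gives about 1 in 20 for independent, normally distributed values. The search used TPM without logarithms, which need not be normally distributed, and part of the genes were picked after their values were seen. Genes also share libraries, so the groups are not independent. The count of 53 can therefore not be set against 1 in 20, and the causes of the flagged values were not tested. Library 1 at 30 days was far above the other 30-day libraries in summed TPM for RNA polymerase II and III subunits at 865, cell cycle at 1476 and mitochondrial ribosomal proteins at 3519. Single genes with a 30-day library 1 far above the rest in TPM were Drat at 20.1, Gar1 at 62.2, Nop10 at 19.5, Rbm13 at 138, Tsp2A at 94.7, dila at 16.3 and roX1 at 11.02. Further such genes were snoRNA:229 at 1.17 and snoRNA:Me28S-G1083a at 8.69. Genes with 30-day library 1 far below the rest in TPM were GstD9 at 257. Library 4 at 30 days was far above the other 30-day libraries in summed TPM for antioxidant defence and Nrf2 pathway at 8756. Single genes with a 30-day library 4 far above the rest in TPM were Cep290 at 7.31, kek1 at 24.04 and trbl at 665. Genes with 30-day library 4 far below the rest in TPM were AstA at 33.98 and pit at 29.9. Library 1 at 10 days was far above the other 10-day libraries in summed TPM for DNA repair and damage response at 1239, enteroendocrine cells at 3628, small heat shock proteins at 5766, mitochondrial ribosomal proteins at 5769.7, nuclear oxidative phosphorylation subunits at 24078 and purine and pyrimidine synthesis at 3589. Single genes with a 10-day library 1 far above the rest in TPM were AstA at 96.5, CycB at 47.3, Dl at 114, Fen1 at 77.6, Hsp23 at 1364, Mip at 6.03 and Mybbp1A at 54.98. Further such genes were PCNA at 134, Prps at 241, Ssk at 137, Tif-IA at 30.5, Tk at 1150.0, Yp1 at 94.4 and bys at 106. Further such genes were hoip at 96.8, iav at 2.26, roX1 at 10.8, pim at 24.9, stg at 39.4 and vito at 371. Lists with 10-day library 1 far below the rest in summed TPM were insulin and TOR pathway at 2637. Genes with 10-day library 1 far below the rest in TPM were Keap1 at 19.6 and cnc at 71.01. Single genes with a 10-day library 2 far above the rest in TPM were Cyp4p1 at 10.2 and RpS30 at 11671. Lists with 10-day library 2 far below the rest in summed TPM were JNK, wound and apoptosis at 2319.9 and intestinal stem cells and enteroblasts at 2740.3. Genes with 10-day library 2 far below the rest in TPM were Prat at 12.2.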

How the results depend on the processing

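The counts of genes called depended on the setting. Genes lower at 30 days were 345 with median-ratio scaling, 333 with quantile normalization, 233 with median-ratio scaling and without 10-day library 1 together, 614 with no filter on low values and 439 with 10-day libraries 3 and 4 averaged, against 1052. Genes higher at 30 days were 251 with a minimum mean of 5 TPM, 234 with no filter and 193 with those libraries averaged, against 386. With 1 library left out at a time, or library 1 of both ages, 172 to 389 genes were higher and 436 to 1222 lower. The other settings (TPM as deposited, pseudocounts of 0.1 and 5, the 8 lacZ libraries alone, and no trend or robust variances) moved neither count by over 1.5 times. Replicate numbers were not taken to pair the libraries: the correlations of deviations of same-numbered libraries were 0.226, 0.118, −0.074 and 0.214, so 3 of 4 were above 0.1, and 30-day library 3 was closest to 10-day library 2. With a replicate block 324 genes were higher and 758 lower, and NHP2, Tif-IA and hoip lost their call. With the block on the 8 lacZ libraries alone 476 were higher and 1037 lower, and Hsp23, Hsp70Aa, Keap1 and Nop56 gained one.

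Of 96 called genes examined in this way, 78 to 96 kept their call in each alternative, and none turned its direction. Median-ratio scaling without 10-day library 1 lost 18, which were Cdk2, Cenp-C, E2f2, NHP2, Nop10, Ns1, Orc2, Polr1A, Polr1C, Polr1E, Polr1H, Tif-IA, cid, egr, hoip, nclb, pim and spi, at adjusted p-values up to 0.249 by limma. Genes without a call turned direction in part: in that fit Myc was at a log2 fold change of 0.060 and PCNA at 0.15. Sox100B was at 0.21 with median-ratio scaling, 0.029 with quantile normalization, 0.047 with 10-day libraries 3 and 4 averaged, 0.15 with median-ratio scaling without 10-day library 1, and −0.13 to 0.070 with a library left out. The roX1 RNA was at −0.069 with the averaged libraries and −0.60 to 1.09 with a library left out. The Yp1 log2 fold change was −0.14 with a pseudocount of 5, and −0.00285 to 2.19 with a library, or library 1 of both ages, left out. The elav log2 fold change was 0.0079 with quantile normalization and −0.90 to 0.040 with libraries left out in the same way. Depth limits the low genes, and read counts were not used here.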
